A study of Mus musculus with 12 samples.

Results

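The genes described here encode the interleukin 7 receptor chain, the common gamma chain and 5 receptor chains that work with one of them. They are Il7r, Il2rg, Il2ra, Il4ra, Il15ra, Il21r and Crlf2, chosen by name and function and not by their values, and they are 7 of the 38924 gene IDs in the table. Their transcript levels were measured by bulk RNA-seq in 12 libraries of 3 progenitor types, sorted from marrow of C57Bl/6J mice (all female), with 4 libraries per type and 2 of each type in each of 2 batches. All marrow was first depleted of cells carrying CD3e, CD11b, B220, Gr-1 or TER-119. Common lymphoid progenitors (CLP) were sorted as lineage-negative cells with low Sca1 and low cKit that carried IL7Ra and Flk2. Granulocyte-monocyte progenitors (GMP) were sorted as lineage-negative, Sca1-negative, cKit-positive, CD150-negative cells with CD34 and the Fc gamma receptor. Lymphoid-primed multipotent progenitors (LMPP) were sorted as lineage-negative, Sca1-positive, cKit-positive, CD150-negative cells with CD34 and high Flk2. No treatment, mutant allele or transgene is named in the labels of these libraries, and they give neither the age of the mice nor the number of animals behind a type. Replicates may thus be technical, and the p-values cover only their spread.

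The interleukin 7 receptor is a pair of chains: the IL-7 receptor alpha chain, encoded by Il7r, binds the cytokine, and the common gamma chain, encoded by Il2rg, joins it to signal. The kinases JAK1 and JAK3 sit on the chains and phosphorylate STAT factors, chiefly STAT5, while SOCS-family proteins and CIS feed back to dampen the signal. The common gamma chain is shared with the receptors for IL-2, IL-4, IL-9, IL-15 and IL-21, and the IL-7 receptor alpha chain also pairs with the product of Crlf2 to form the receptor for thymic stromal lymphopoietin (TSLP). In mouse marrow IL-7 signalling is required for normal B cell development, and mice or people without the common gamma chain lack most lymphocyte lineages.

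Il7r lies on chromosome 15 (mm10, 9505788 to 9530176, minus strand) and Il2rg on chromosome X (101264378 to 101268255, minus strand). Il2ra and Il15ra are neighbours on chromosome 2, at 11642807 to 11693193 and 11705290 to 11734317 on the plus strand, 12096 bases apart with 0 annotated genes between them. Il4ra and Il21r are likewise neighbours on chromosome 7, at 125552120 to 125579474 and 125603429 to 125633570 on the plus strand, 23954 bases apart with 0 genes between them. Crlf2 lies on chromosome 5 (109554709 to 109558993, minus strand). Gm20489, a protein-coding gene model on the same strand, overlaps Il2rg and was listed at 0 in all 12 libraries.

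The 250 bases before the RefSeq start (GRCm38.p6) of the genes for both chains of the IL-7 receptor are shown because the factors listed later as acting on Il7r bind DNA, and because both genes differed between GMP and LMPP. They were searched on both strands for AGGAAGT and CGGAAGT (ETS family), GTAAACA (forkhead) and TTCNNNGAA (STAT). Capitals mark the matches.
Il7r, chr15:9529877-9530126, minus strand: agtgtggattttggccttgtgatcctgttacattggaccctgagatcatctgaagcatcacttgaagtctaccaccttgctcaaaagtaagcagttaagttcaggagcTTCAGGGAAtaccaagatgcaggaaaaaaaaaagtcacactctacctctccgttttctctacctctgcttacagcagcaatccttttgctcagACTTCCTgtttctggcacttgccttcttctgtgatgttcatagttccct
Il2rg, chrX:101268256-101268505, minus strand: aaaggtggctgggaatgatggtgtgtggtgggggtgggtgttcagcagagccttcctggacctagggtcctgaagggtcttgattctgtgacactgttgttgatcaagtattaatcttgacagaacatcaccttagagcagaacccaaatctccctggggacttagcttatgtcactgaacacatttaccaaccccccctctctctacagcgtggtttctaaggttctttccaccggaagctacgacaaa
The Il7r window held AGGAAGT, read on the other strand as ACTTCCT and starting 49 bases before the start, and TTCNNNGAA as TTCAGGGAA, starting 142 bases before it. Il2rg held none of the 4 motifs in this window. Of the other members, Il2ra held AGGAAGT 35 bases before its start, Il21r held GTAAACA 38 bases before its start, and Il4ra, Il15ra and Crlf2 held none. Over the 27025 promoters of the RefSeq table, 7.8% held AGGAAGT, 4.98% CGGAAGT, 3.09% GTAAACA and 7.18% TTCNNNGAA in a window of that length. Of the Il7r window, 86 bases overlap exons that GENCODE annotates to Il7r. A match is a string of letters and not a shown binding site.

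Values are TPM, a level per transcript length relative to the total of the library. Differences were tested with limma on log2(TPM + 1) over the 12718 genes that reached 1 TPM in 4 or more libraries, with type and batch in the fit, and a gene was called at a Benjamini-Hochberg adjusted p under 0.05. All differences and standard errors (SE) below are on that log2 scale and all tests are two-sided, so the change of a gene near 0 is understated. Il7r, Il2rg, Il4ra, Il15ra, Il21r and Crlf2 passed the filter, while Il2ra reached 1 TPM in 3 libraries and did not. Because IL7Ra protein was a gate of CLP, the differences of Il7r that involve CLP, between types or between batches, are described and not tested.

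The sorted types were compared with lists of marker genes. Mpo, a granule enzyme of GMP, ranged over 13726 to 15969.5 TPM in GMP libraries, 107 to 1401 TPM in CLP libraries and 805 to 1219 TPM in LMPP libraries. The 5 CLP markers (Il7r, Flt3, Rag1, Dntt and Ly6d) summed to 1096 to 2247 TPM in CLP, 3.29 to 6.72 TPM in GMP and 605.6 to 848.6 TPM in LMPP. Dntt alone, not a gate, was at 921.7 to 1848.2 TPM in CLP, 0.31 to 0.97 TPM in GMP and 485.3 to 698.4 TPM in LMPP. The 5 LMPP markers (Flt3, Cd34, Ly6a, Hlf and Mecom) summed to 38.5 to 365 TPM in CLP, 116.2 to 162.2 TPM in GMP and 616.7 to 829.9 TPM in LMPP. Il7r, Flt3, Cd34 and Ly6a encode gated proteins, so both sums partly repeat the sort. The batch 2 CLP libraries stood apart: Flt3, which encodes the gated Flk2, was at 8.91 and 17.0 TPM in batch 2, against 138.3 and 146.1 TPM in batch 1. A list of 6 B cell genes summed to 3469 and 4314 TPM in batch 2 CLP, against 25.4 to 623 TPM in batch 1 CLP, 33.6 to 43.2 TPM in GMP and 27.5 to 76.2 TPM in LMPP. Replicate 1 of batch 2 had the highest sums of neutrophil and of erythroid markers within both CLP and LMPP. Values without the batch 2 CLP libraries, or within each batch, stand beside many, but not all, of the CLP results that they moved.

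Il7r had the widest span of the 7 genes. It was at 86.5 and 82.3 TPM in batch 1 CLP and 76.6 and 129.8 TPM in batch 2 CLP. It was at 0.19, 0.29, 0.04 and 0.30 TPM in the 4 GMP libraries. In LMPP it was at 6.00 and 5.14 TPM in batch 1 and 10.1 and 11.3 TPM in batch 2. The 3 types did not overlap, with every CLP library above every LMPP library and every LMPP library above every GMP library. The means were 93.8 ± 24.3 TPM in CLP, 0.205 ± 0.121 TPM in GMP and 8.12 ± 3.00 TPM in LMPP (SD, n = 4 each). In GMP, which were not gated on IL7Ra, Il7r was lower than in LMPP by 2.86 on the log2 scale (SE 0.23, limma adjusted p = 1.34e-05), and the LMPP mean was 39.6 times the GMP mean. Within batches the GMP minus LMPP difference was -2.40 in batch 1 and -3.32 in batch 2, with limma adjusted p = 0.000473 and 0.0121. As a description, the CLP mean was 11.6 times the LMPP mean, and the CLP minus LMPP difference was 3.41 with all libraries and 3.47 without the batch 2 CLP libraries. In bulk samples, fewer cells that carry a transcript and less of it per cell cannot be told apart.

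**Figure D1:**
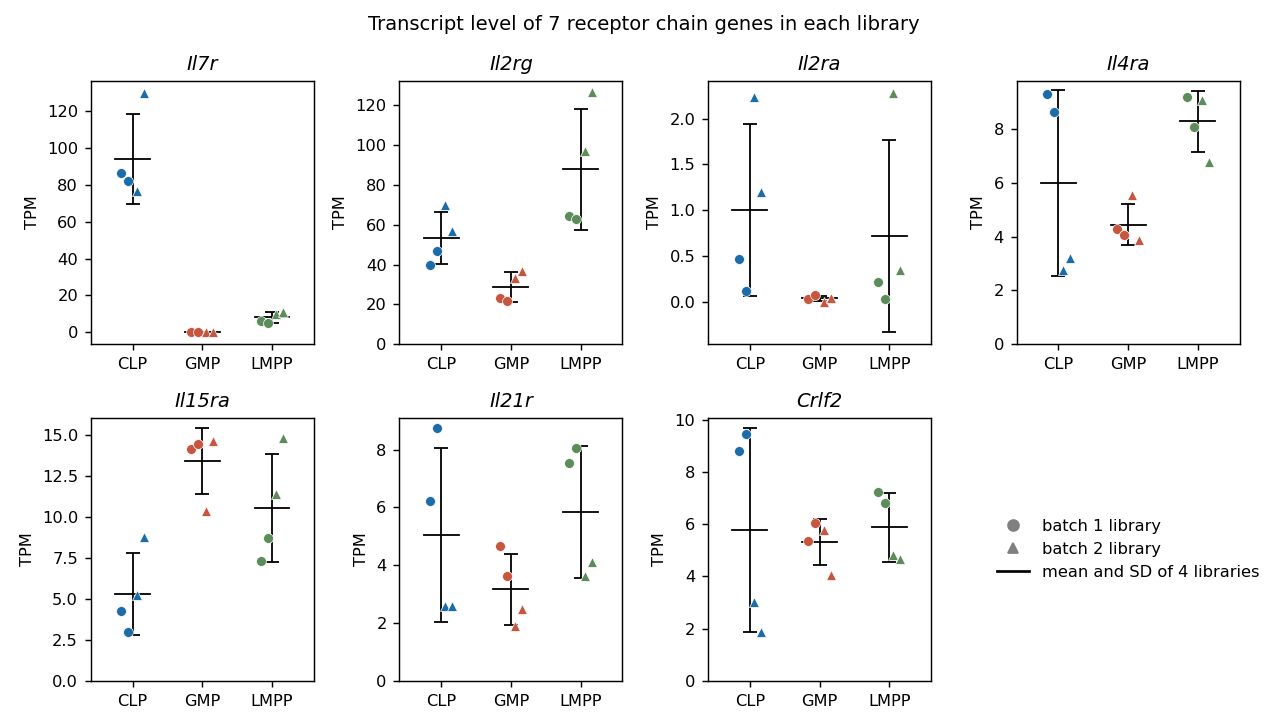
TPM (linear axes, a separate scale per gene) of the 7 genes in CLP, GMP and LMPP. Each point is 1 library, circles for batch 1 and triangles for batch 2, and bars give the mean and SD of 4 libraries. Il7r stands at 76.6 TPM or more in every CLP library and at 0.30 TPM or less in every GMP library, Il2rg is present in all types, and Il4ra, Il21r and Crlf2 in CLP split by batch.

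Il2rg, the shared signalling chain, was present in every library and followed another order. It was at 39.5 and 46.7 TPM in batch 1 CLP and 69.96 and 57.0 TPM in batch 2 CLP. In GMP it was at 23.2 and 21.5 TPM in batch 1 and 33.3 and 36.9 TPM in batch 2. In LMPP it was at 64.1 and 62.9 TPM in batch 1 and 97.0 and 126.8 TPM in batch 2. Every GMP library was below every CLP and every LMPP library, while CLP and LMPP overlapped. The means were 53.3 ± 13.2 TPM in CLP, 28.7 ± 7.55 TPM in GMP and 87.7 ± 30.5 TPM in LMPP (SD, n = 4 each). Il2rg was lower in GMP than in LMPP by 1.55 (SE 0.14, limma adjusted p = 2.21e-05), and this was called within batch 1 (-1.47, adjusted p = 0.000998) and within batch 2 (-1.63, adjusted p = 0.0149). It was higher in CLP than in GMP by 0.87 (SE 0.14, limma adjusted p = 0.000703), with 0.91 in batch 1 and 0.83 in batch 2. It was lower in CLP than in LMPP, with a difference of -0.68 (SE 0.14, limma adjusted p = 0.0105). That call was not made within batch 1 alone (-0.55, adjusted p = 0.0579) or batch 2 alone (-0.80, adjusted p = 0.0593), each with 2 libraries per type, and it was kept without the batch 2 CLP libraries (-0.59, adjusted p = 0.049).

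The balance of the transcripts for the 2 chains of the IL-7 receptor therefore differed between types. CLP were gated on IL7Ra, so their ratios and Il7r shares are a description with no test. The ratio of Il7r to Il2rg TPM was 2.19 and 1.76 in batch 1 CLP and 1.10 and 2.28 in batch 2 CLP, so Il7r exceeded Il2rg in all 4 libraries. The ratio was 0.00819, 0.0135, 0.0012 and 0.00813 in the GMP libraries. It was 0.0936, 0.0818, 0.104 and 0.0889 in the LMPP libraries, a narrow range across both batches. The mean log2 ratio was -7.45 in GMP and -3.45 in LMPP, a difference of -4.00, with an exact permutation p = 0.0286 (two-sided, n = 4 each), which is the smallest p that 4 against 4 libraries allow. The Il7r values of these types were already shown to lie apart, so this test adds no separate support. The 7 genes summed to 155.0 to 204.4 TPM in CLP, 50.1 to 62.3 TPM in GMP and 99.7 to 168.8 TPM in LMPP. Il7r held 47.2% to 63.5% of that sum in CLP, 0.0702% to 0.579% in GMP and 5.16% to 7.27% in LMPP. Il2rg held 25.5% to 43.1% in CLP, 42.9% to 59.3% in GMP and 63.0% to 75.1% in LMPP.

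**Figure D2:**
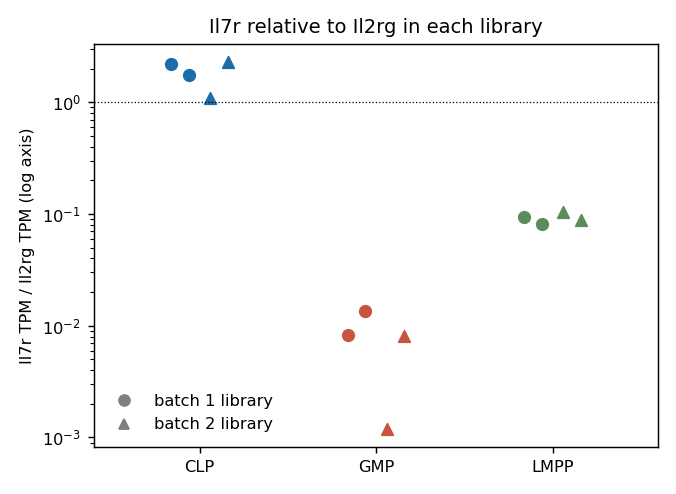
Ratio of Il7r TPM to Il2rg TPM in each library (log axis), by type, with circles for batch 1 and triangles for batch 2. The dotted line marks equal levels: the 4 CLP ratios lie between 1.10 and 2.28, the GMP ratios between 0.0012 and 0.0135 and the LMPP ratios between 0.0818 and 0.104. CLP were gated on IL7Ra.

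Il15ra, the high-affinity chain that binds IL-15 and presents it to cells with IL2RB and the common gamma chain, was lowest in CLP by its mean. It was at 4.24 and 2.97 TPM in batch 1 CLP and 5.22 and 8.78 TPM in batch 2 CLP. It was at 14.1, 14.5, 10.4 and 14.6 TPM in GMP, and at 7.33 and 8.72 TPM in batch 1 and 11.4 and 14.8 TPM in batch 2 of LMPP. Every CLP library was below every GMP library, and LMPP overlapped both. The means were 5.30 ± 2.495 TPM in CLP, 13.4 ± 2.03 TPM in GMP and 10.6 ± 3.30 TPM in LMPP (SD, n = 4 each). Il15ra was lower in CLP than in GMP by 1.26 (SE 0.25, limma adjusted p = 0.00347), with -1.75 in batch 1 (adjusted p = 0.0022) and -0.77 in batch 2, where it was not called (adjusted p = 0.199). It was lower in CLP than in LMPP by 0.91 (SE 0.25, limma adjusted p = 0.0398). That call was lost in 18 of 27 alternative settings and when any 1 of 10 of the 12 libraries was left out (adjusted p from 0.05 to 0.109), all but CLP batch 2 replicate 2 and GMP batch 2 replicate 1. It was also lost without the 2 haemoglobin-rich libraries, replicate 1 of batch 2 in CLP and in LMPP (-0.885, adjusted p = 0.107), and kept without the batch 2 CLP libraries (-1.19, adjusted p = 0.0296). GMP and LMPP differed by 0.35 (SE 0.25, limma adjusted p = 0.322), which was not called, although within batch 1 alone the difference was 0.77 with adjusted p = 0.0412.

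Il4ra encodes the alpha chain of the IL-4 receptor, which is also part of the IL-13 receptor. It was at 9.30 and 8.65 TPM in batch 1 CLP and 2.78 and 3.22 TPM in batch 2 CLP. It was at 4.30, 4.08, 5.57 and 3.87 TPM in GMP and at 9.21, 8.09, 9.11 and 6.78 TPM in LMPP. Every GMP library was below every LMPP library, and CLP batch 1 lay with LMPP while CLP batch 2 lay below all other libraries. The GMP minus LMPP difference was -0.77 (SE 0.29), which was not called at limma adjusted p = 0.0609. It was called without either CLP library of batch 2 (adjusted p = 0.0446 without replicate 1 and 0.0433 without replicate 2), without both (-0.77, adjusted p = 0.00422) and without GMP batch 2 replicate 1 (-0.96, adjusted p = 0.0404). The CLP minus LMPP difference was -0.55 (SE 0.29, limma adjusted p = 0.239) and the CLP minus GMP difference was 0.22 (SE 0.29, limma adjusted p = 0.617). This last comparison joined values of opposite sign, 0.94 within batch 1 (adjusted p = 0.0154) and -0.50 within batch 2 (adjusted p = 0.365).

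Il21r, the ligand-binding chain of the IL-21 receptor, was at 6.21 and 8.76 TPM in batch 1 CLP and 2.59 and 2.58 TPM in batch 2 CLP. It was at 4.67, 3.64, 1.90 and 2.49 TPM in GMP and at 7.55, 8.07, 3.64 and 4.12 TPM in LMPP. The 3 types overlapped, and within each type both batch 2 libraries were below both batch 1 libraries. Il21r was lower in GMP than in LMPP by 0.70 (SE 0.20, limma adjusted p = 0.0228). That call was lost without GMP batch 1 replicate 1 (adjusted p = 0.0567), GMP batch 1 replicate 2 (0.0776), GMP batch 2 replicate 1 (0.057) or LMPP batch 2 replicate 3 (0.0556), and within batch 2 alone (-0.62, adjusted p = 0.246). It was lost in 9 of 27 alternative settings in all, among them quantile normalization (-0.213, adjusted p = 0.47) and no batch term (adjusted p = 0.217). The CLP minus LMPP difference was -0.26 (SE 0.20, limma adjusted p = 0.443) and the CLP minus GMP difference was 0.44 (SE 0.20, limma adjusted p = 0.138), neither of which was called.

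Crlf2, the chain that joins the IL-7 receptor alpha chain to form the TSLP receptor, was at 8.81 and 9.44 TPM in batch 1 CLP and 3.00 and 1.87 TPM in batch 2 CLP. It was at 5.34, 6.03, 5.78 and 4.05 TPM in GMP and at 7.22, 6.79, 4.82 and 4.66 TPM in LMPP. The type means lay close together, at 5.78 ± 3.90 TPM in CLP, 5.30 ± 0.88 TPM in GMP and 5.87 ± 1.32 TPM in LMPP (SD, n = 4 each), and all types overlapped. The differences were -0.21 for CLP minus LMPP, -0.12 for GMP minus LMPP and -0.09 for CLP minus GMP, each with an SE of 0.28 and with limma adjusted p = 0.667, 0.783 and 0.84. In GMP, Crlf2 thus stood at a level above Il7r in all 4 libraries, whereas in CLP Il7r was above Crlf2 in all 4.

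Il2ra, the alpha chain of the high-affinity IL-2 receptor, was the lowest of the 7. It was at 0.46 and 0.11 TPM in batch 1 CLP and 2.24 and 1.20 TPM in batch 2 CLP, at 0.03, 0.07 and 0.04 TPM in 3 GMP libraries and listed at 0 in the other, and at 0.21, 0.03, 2.28 and 0.34 TPM in LMPP. Every CLP library was above every GMP library, and LMPP overlapped both. As it was below the filter, it was compared by exact permutation of log2(TPM + 1). The mean difference was 0.83 for CLP minus GMP (exact p = 0.0286, 0.0858 adjusted over the 3 comparisons), 0.27 for CLP minus LMPP (exact p = 0.657) and -0.56 for GMP minus LMPP (exact p = 0.114). None passed after adjustment, and 4 against 4 libraries allow no exact p below 0.0286, so a single difference among 3 could not pass. Markers of T cells, which can carry IL2RA, were low: 6 of them summed to 2.28 to 12.9 TPM in CLP, 0.28 to 0.70 TPM in GMP, where Cd3d and Cd3g were at 0, and 3.58 to 7.46 TPM in LMPP. The 6 B cell genes were not low throughout. They summed to 3469 and 4314 TPM in batch 2 CLP, where Il2ra was higher than in batch 1 CLP (623 and 25.4 TPM). In LMPP they summed to 76.2 TPM in batch 2 replicate 1, which had the highest Il2ra value, and to 27.5 to 32.3 TPM in the other libraries. The part of either list in the Il2ra values was not tested.

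**Figure D3:**
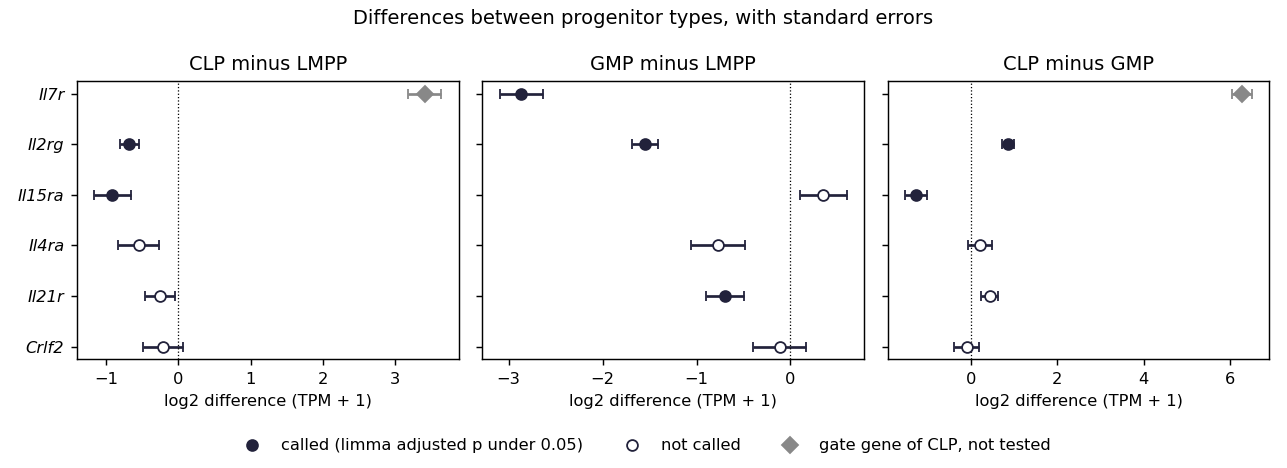
Differences on the log2(TPM + 1) scale with their standard errors for the 6 members that were fitted, in 3 comparisons. Filled circles were called, open circles were not, and grey diamonds are the untested CLP differences of the gate gene Il7r. Il2rg is called in all 3 comparisons, lower in CLP and in GMP than in LMPP and higher in CLP than in GMP.

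Counted over the members, 2 of 5 tested were called in CLP against LMPP, both lower (Il2rg and Il15ra), where 10.0% of all 12718 genes were called and 7.23% were called lower. In GMP against LMPP, 3 of 6 were called, all lower (Il7r, Il2rg and Il21r), where 28.9% of all genes were called and 21.3% were called lower. In CLP against GMP, 2 of 5 were called, Il2rg higher and Il15ra lower, where 23.9% of all genes were called, 13.9% higher and 9.96% lower. The median difference over the tested members was -0.55, -0.73 and 0.22 in these comparisons, beside -0.17, -0.24 and 0.09 over all tested genes. The comparisons share libraries, so they are not independent. Median-ratio scaling moved the median over all genes to -0.02, -0.02 and 0.01 in these comparisons. Relative to it, Il7r and Il2rg kept their GMP minus LMPP calls, and Il21r (-0.48, adjusted p = 0.0941) did not.

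The members also differed between the batches within CLP, and in opposite directions. Crlf2 was lower in batch 2 than in batch 1 CLP by 1.58 (SE 0.27, limma adjusted p = 0.00173), with a mean of 2.44 TPM in batch 2, against 9.13 TPM in batch 1. Il4ra was lower in batch 2 by 1.32 (SE 0.26, adjusted p = 0.00375) and Il21r by 1.23 (SE 0.27, adjusted p = 0.00658), the second of which was lost without CLP batch 1 replicate 2 (adjusted p = 0.0628). Il2rg was higher in batch 2 by 0.55 (SE 0.18, adjusted p = 0.0371), a call lost in 9 of 12 leave-one-out fits, and kept when the library left out was the second of batch 2 in CLP (replicate 2) or either of batch 2 in LMPP. The call was also lost under other scalings, where the difference was 0.344 with median-ratio scaling (adjusted p = 0.134) and 0.124 with quantile normalization (adjusted p = 0.663). Il15ra differed by 0.77 (SE 0.29, adjusted p = 0.0682) and was called without CLP batch 2 replicate 1 (1.10, adjusted p = 0.0163). As a description, Il7r differed by 0.24 between the batches, whose CLP values overlapped, and by -0.233 with quantile normalization. Thus 4 of 5 tested members were called, 1 higher and 3 lower, where 32.0% of all genes were called, 21.3% higher and 10.7% lower. The B cell, neutrophil and erythroid marker sums were also higher in both batch 2 CLP libraries than in batch 1, and their part in these differences was not tested. Within GMP, limma called 0 of 6 members between batches, where 8.22% of all genes were called; 2 had an unadjusted p under 0.05, Il2rg with 0.63 and Il21r with -0.69. Within LMPP, 1 of 6 was called, Il2rg (0.80, SE 0.18, adjusted p = 0.0324), where 4.61% of all genes were called. Neutrophil markers summed to 23190 and 1590 TPM in batch 2 LMPP, against 201 and 26.7 TPM in batch 1 LMPP. Erythroid markers summed to 28300 and 1179 TPM in batch 2 LMPP, against 582 and 186 TPM in batch 1, and dendritic cell markers to 452 and 1268 TPM, against 232 and 249.5 TPM. The part of these sums in the Il2rg difference was not tested.

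**Figure D4:**
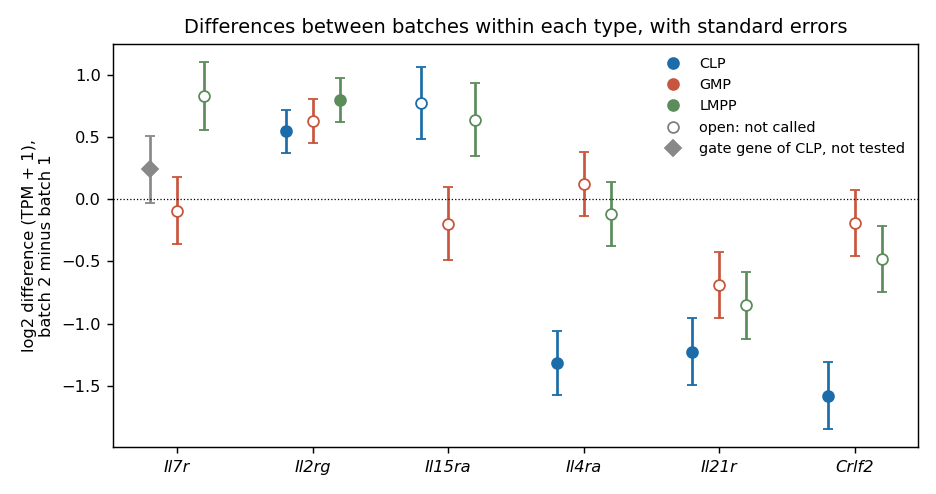
Batch 2 minus batch 1 differences on the log2(TPM + 1) scale, with standard errors, of 6 members within CLP, GMP and LMPP, from TPM as deposited. Filled circles were called by limma, and the grey diamond is the untested value of the gate gene Il7r in CLP. Il4ra and Crlf2 are lower in batch 2 by 1.32 and 1.58 in CLP, Il2rg is higher in batch 2 in all 3 types (0.55, 0.63 and 0.80) and Il21r is lower in all 3 (-1.23, -0.69 and -0.85).

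The test of whether a difference between types itself changed with the batch gave fewer calls. For CLP minus LMPP, limma called 0 of 5 members, where 8.58% of all genes were called; 2 had an unadjusted p under 0.05, Il4ra (-1.20, adjusted p = 0.0697) and Crlf2 (-1.10, adjusted p = 0.0989). Crlf2 was called without CLP batch 2 replicate 1 (-1.34, adjusted p = 0.0277). For CLP minus GMP, 1 of 5 was called, Il4ra (-1.44, SE 0.36, adjusted p = 0.0486), where 5.48% of all genes were called. This call was lost in 9 of 12 leave-one-out fits, and kept when the library left out was replicate 1 of batch 2 in CLP or either of batch 2 in LMPP. Crlf2 (-1.39, adjusted p = 0.061) was not called with all libraries and was called without CLP batch 2 replicate 1 (-1.63, adjusted p = 0.0155), as was Il15ra (1.30, adjusted p = 0.0452). For GMP minus LMPP, limma called 0 of 6 members, where 0.0157% of all genes were called. There 1 member had an unadjusted p under 0.05, Il7r with -0.921 (adjusted p = 0.488).

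The ligands of these receptors were mostly at or near 0 in the sorted cells. Il9 and Il13 were listed at 0 in all 12 libraries, Il21 reached 0.03 TPM, Il2 0.27 TPM and Il4 0.55 TPM at most. Il7 itself, which marrow stromal cells supply, was below the filter, at up to 0.69 TPM in CLP, 0.23 TPM in GMP and 2.33 TPM in LMPP. Il15 was lower in CLP than in LMPP by 2.27 (SE 0.23, limma adjusted p = 0.000226), at 1.76 ± 0.69 TPM in CLP and 12.3 ± 2.94 TPM in LMPP (SD, n = 4 each), with no overlap. It was also lower in GMP (5.12 ± 0.56 TPM, n = 4) than in LMPP, by 1.09 (adjusted p = 0.00455), and lower in CLP than in GMP by 1.18 (adjusted p = 0.00319). Within batch 2 alone neither of these differences was called, with limma adjusted p = 0.159 for CLP minus GMP. Tslp was higher in GMP than in LMPP by 1.59 (SE 0.28, limma adjusted p = 0.00142), at 3.65, 5.38, 4.03 and 2.14 TPM in GMP, against 0.24, 0.33, 0.97 and 0.76 TPM in LMPP. It passed the filter through the GMP libraries only, so it had to differ. GMP thus listed Tslp and Crlf2 in every library, with Il7r at 0.30 TPM or less.

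Of the partner chains, Il2rb, shared by the IL-2 and IL-15 receptors, was at 1.90 ± 1.34 TPM in CLP and 0.115 ± 0.175 TPM in GMP (SD, n = 4 each), higher in CLP by 1.25 (SE 0.37, limma adjusted p = 0.0291). The call was lost in 7 of 24 alternatives, among them leaving out replicate 1 of batch 1 in CLP, replicate 2 of batch 2 in CLP or either batch 2 library of GMP (adjusted p up to 0.0979). The difference was 1.91 within batch 2 (adjusted p = 0.0201) and 0.583 within batch 1 (adjusted p = 0.35). Il2rb reached 1 TPM in 3 CLP, 2 LMPP and 0 GMP libraries. It thus passed the filter only with CLP, where its mean was highest, and the call is no support by itself. In LMPP Il2rb was at 0.975 ± 0.996 TPM (SD, n = 4), and the 6 NK and innate lymphoid markers summed to 1.57 to 13.7 TPM in CLP, 0.26 to 0.68 TPM in GMP and 3.02 to 6.71 TPM in LMPP, whose part in this was not tested. Il9r (at most 0.27 TPM) and Il13ra1 (at most 1.88 TPM) did not pass the filter.

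Among the kinases, 2 of 4 were lower in GMP than in LMPP, beside 21.3% of all genes. Jak1, which sits on the ligand-binding chains, was at 63.8 ± 29.4 TPM in CLP, 39.7 ± 11.3 TPM in GMP and 72.5 ± 13.6 TPM in LMPP (SD, n = 4 each), lower in GMP than in LMPP by 0.88 (limma adjusted p = 0.00232) and higher in CLP than in GMP by 0.60 (adjusted p = 0.0207). The second call was lost in 8 of 27 alternatives, among them leaving out replicate 2 of batch 2 in CLP, replicate 1 of batch 1 in GMP or either batch 2 library of GMP (adjusted p up to 0.0643). That difference was 0.301 without the batch 2 CLP libraries (adjusted p = 0.204), 0.836 within batch 2 (adjusted p = 0.0232) and 0.358 within batch 1 (adjusted p = 0.194). Jak3, which sits on the common gamma chain, was at 4.12 ± 2.05, 2.71 ± 0.40 and 7.95 ± 2.85 TPM in CLP, GMP and LMPP (SD, n = 4 each) and was lower in GMP than in LMPP by 1.23 (adjusted p = 0.00787). The Jak3 call was lost in 3 of 27 alternatives, which were quantile normalization, the replicate block and batch 2 alone (adjusted p up to 0.126). Jak2 and Tyk2 were not called in any of the 3 comparisons. Of the 4 STAT genes described here, 1 was lower in GMP than in LMPP, beside 21.3% of all genes. It was Stat3 (-0.997, limma adjusted p = 0.0112). The Stat3 call was lost with median-ratio scaling and within batch 2 alone (adjusted p up to 0.174). Stat5a, Stat5b and Stat6 were not called, with Stat5a at 11.9 ± 2.02 TPM in CLP, 13.9 ± 1.39 TPM in GMP and 17.0 ± 3.05 TPM in LMPP (SD, n = 4 each).

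Of the inhibitors, 3 were called, each higher in CLP. Socs2, a SOCS-family gene induced by STAT5, was at 18.5, 11.8, 24.99 and 31.8 TPM in CLP, at 0.17, 0.06, 0 and 0.29 TPM in GMP, and at 0.16, 0.78, 3.47 and 2.24 TPM in LMPP. Every CLP library was above every other library. It was higher in CLP than in LMPP by 3.198 (SE 0.31, limma adjusted p = 0.00017) and higher in CLP than in GMP by 4.25 (adjusted p = 3.64e-06), and both calls held within each batch. Cish, which encodes CIS, another STAT5-induced feedback protein, was higher in CLP (5.80 ± 3.42 TPM) than in LMPP (1.84 ± 0.45 TPM, SD, n = 4 each) by 1.16 (adjusted p = 0.0309) and than in GMP (0.45 ± 0.11 TPM) by 2.12 (adjusted p = 0.00037). The first call was lost in 11 of 26 alternatives, among them leaving out replicate 1 of batch 1 or replicate 2 of batch 2 in CLP, or any LMPP library other than replicate 2 of batch 1 (adjusted p up to 0.0913). Without the batch 2 CLP libraries it was 1.02 (adjusted p = 0.0506). Sh2b3, which encodes the adaptor LNK, was higher in CLP than in LMPP by 0.55 (adjusted p = 0.0314) and than in GMP by 0.85 (adjusted p = 0.00118). The first of these was lost in 15 of 27 alternatives, among them leaving out replicate 1 of batch 1 or replicate 2 of batch 2 in CLP, either batch 2 library of GMP or any LMPP library (adjusted p up to 0.0725). Without the batch 2 CLP libraries it was 0.523 (adjusted p = 0.0803). The Sh2b3 call of CLP against GMP was lost within batch 2 alone (limma adjusted p = 0.0617). Thus 3 of 6 tested inhibitors were higher in CLP and 0 lower in both comparisons, where 2.8% of all genes were higher than in LMPP and 13.9% higher than in GMP. Socs2 reached 1 TPM in 4 CLP, 2 LMPP and 0 GMP libraries. It thus passed the filter only with CLP, where it was high, and its CLP calls add no support to this count. In GMP against LMPP, 2 of 6 were lower, Socs2 (-1.06, adjusted p = 0.0238, lost in 10 of 27 alternatives) and Cish (-0.958, adjusted p = 0.0306, lost in 11 of 26), beside 21.3% of all genes. Socs1 and Socs3 did not pass the filter.

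In the PI3K arm, Pik3cd, the catalytic subunit prominent in leukocytes, was higher in CLP (29.0 ± 6.36 TPM) than in LMPP (13.6 ± 0.81 TPM, SD, n = 4 each) by 1.02 (limma adjusted p = 0.00308) and than in GMP by 0.75 (adjusted p = 0.00553). The call against GMP was lost within batch 2 alone (limma adjusted p = 0.0671). Pik3r1, a regulatory subunit, was at 38.2 ± 3.797 TPM in GMP and 59.2 ± 3.59 TPM in LMPP (SD, n = 4 each), lower in GMP by 0.62 (adjusted p = 0.00471). The Pik3r1 call was lost with median-ratio scaling and within batch 2 alone (adjusted p up to 0.113). Pik3ca, another catalytic subunit, was lower in GMP than in LMPP by 0.64 (adjusted p = 0.0322). The Pik3ca call was lost in 13 of 27 alternatives, among them leaving out any GMP library or any LMPP library other than replicate 3 of batch 2 (adjusted p up to 0.0909). Of the 9 genes of the PI3K arm and adaptors, 1 was called in CLP against LMPP (11.1%, beside 10.0% of all genes). In GMP against LMPP 2 were called (22.2%, beside 28.9%), and in CLP against GMP 1 (11.1%, beside 23.9%). The list was thus near or below the share over all genes. Among 9 targets and survival genes, Ccnd3, a cyclin D, was higher in CLP (211.4 ± 107.9 TPM) than in LMPP (47.0 ± 7.82 TPM, SD, n = 4 each) by 1.98 (adjusted p = 0.00093) and than in GMP by 2.57 (adjusted p = 3.42e-05), with 1.45 and 2.04 without the batch 2 CLP libraries, both called. Pim1, a survival kinase induced by STAT5, and Bcl2l11, which encodes the death-promoting BIM, were both lower in GMP than in LMPP, with differences of -1.85 (adjusted p = 0.000435) and -1.50 (adjusted p = 0.000187). Of these 9 genes, 6 were higher and 0 lower in CLP than in GMP, beside 13.9% of all genes higher and 9.96% lower. Among the 6, the call of Pim2 (0.73, adjusted p = 0.0479) was lost in 20 of 27 alternatives and that of Bcl2l1 (1.50, adjusted p = 0.0157) in 5 of 27. Without the batch 2 CLP libraries neither was called, with Pim2 at 0.717 (adjusted p = 0.102) and Bcl2l1 at 0.914 (adjusted p = 0.169). The call of Mcl1 (0.522, adjusted p = 0.00974) was also lost without those libraries, and within batch 1 alone and with no batch term (adjusted p up to 0.336). Within batch 2 alone, the CLP minus GMP calls of Pim1 (adjusted p = 0.0835) and Bcl2l11 (adjusted p = 0.0514) were lost.

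Of 7 genes for factors reported to act on Il7r, Ets1 was at 43.0 ± 29.9 TPM in CLP, 2.83 ± 0.22 TPM in GMP and 9.71 ± 4.53 TPM in LMPP (SD, n = 4 each). It was at 59.8 and 76.4 TPM in batch 2 CLP, against 21.8 and 14.1 TPM in batch 1 CLP. Ets1 was higher in CLP than in LMPP by 1.83 (limma adjusted p = 0.00534) and lower in GMP than in LMPP by 1.39 (adjusted p = 0.00735). The first of these was 2.31 within batch 2, 1.34 within batch 1 and 1.13 without the batch 2 CLP libraries (adjusted p = 0.0463), and was lost with the replicate block (adjusted p = 0.0691). Foxo1, a forkhead factor required for Il7r expression in lymphocytes, was higher in CLP than in GMP by 3.19 (adjusted p = 0.00251) and than in LMPP by 2.11 (adjusted p = 0.0453). Its level split by batch, with a mean of 73.9 TPM in batch 2 CLP, against 10.8 TPM in batch 1 CLP, and without the batch 2 CLP libraries the CLP minus LMPP difference was 0.76 and not called (adjusted p = 0.437). That call was lost when any 1 library was left out other than replicate 2 of batch 1 in CLP (adjusted p up to 0.114). The CLP minus GMP difference of Foxo1 was 4.62 within batch 2 (adjusted p = 0.00113) and 1.75 within batch 1, where it was not called (adjusted p = 0.122), and 1.84 without the batch 2 CLP libraries (adjusted p = 0.0337). Between the CLP batches, Foxo1 was 3.14 higher in batch 2 (adjusted p = 0.00368). Gfi1, a repressor that acts on Il7r, was lower in CLP than in GMP by 1.70 (adjusted p = 0.00228), with -0.846 and no call within batch 2 (adjusted p = 0.173) and -2.55 within batch 1. Spi1, which encodes PU.1, was higher in GMP than in LMPP by 0.97 (adjusted p = 0.0113) and lower in CLP than in GMP by 1.61 (adjusted p = 0.000568). The first of these 2 Spi1 calls was lost within batch 2 alone (adjusted p = 0.198). Foxp1 was called in all 3 comparisons, and Gabpa and Runx1 in none. The Foxp1 call of CLP against LMPP was lost in 8 of 27 alternatives, 3 of them leave-one-out fits (adjusted p up to 0.213). Its GMP minus LMPP call was lost with median-ratio scaling (adjusted p = 0.0912). Of the 7, 3 were called in CLP against LMPP, all higher, beside 10.0% of all genes. In GMP against LMPP 1 was higher and 2 lower, beside 28.9% called. In CLP against GMP 3 were higher and 2 lower, beside 23.9% called.

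**Figure D5:**
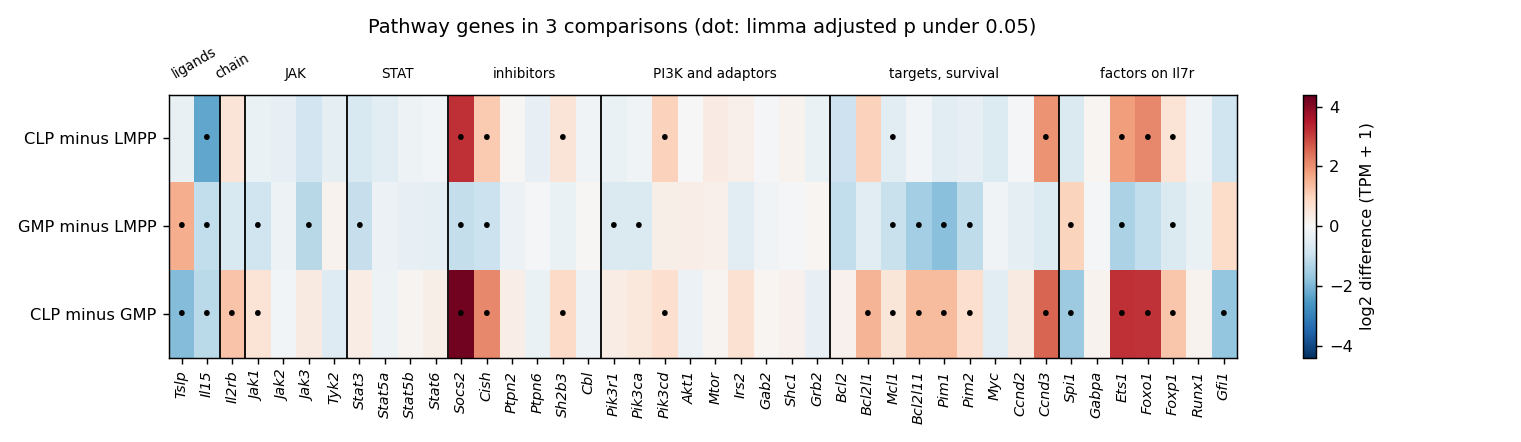
Differences on the log2(TPM + 1) scale (colour, red higher and blue lower in the first-named type) of the 42 listed pathway genes that passed the filter, in 3 comparisons, grouped by role. Dots mark limma calls: 8 higher and 2 lower in CLP against LMPP, 2 higher and 14 lower in GMP against LMPP, and 15 higher and 4 lower in CLP against GMP.

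Over the 8 pathway lists, 42 of 52 genes were tested. In CLP against LMPP, 8 were higher and 2 lower (23.8% of those tested, beside 10.0% of all genes, with 2.8% called higher), with a median difference of -0.15. In GMP against LMPP, 2 were higher and 14 lower (38.1%, beside 28.9% of all genes, with 7.62% called higher), with a median of -0.41. In CLP against GMP, 15 were higher and 4 lower (45.2%, beside 23.9% of all genes), with a median of 0.31. Tslp, which had to differ, is 1 of the 2 higher in GMP than in LMPP and 1 of the 4 lower in CLP than in GMP. Socs2 and Il2rb, which passed the filter only with CLP, are among the 15 higher in CLP than in GMP. Socs2 is also among the 8 higher in CLP than in LMPP.

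The genes whose log2(TPM + 1) was most like that of a member over the 12 libraries were found by Pearson correlation, as a description only, since the libraries share types and batches. Rag2, a subunit of the recombinase that assembles antigen receptor genes, was the most like Il7r (r = 0.991), at 75.9 ± 11.4 TPM in CLP, 1.54 ± 0.86 TPM in GMP and 9.70 ± 1.46 TPM in LMPP (SD, n = 4 each), followed by Lgmn (r = 0.988) and Drc7 (r = 0.981). Ash1l (r = 0.985), Ifi27 (r = 0.978) and Hivep3 (r = 0.975) were the most like Il2rg. Lair1 (r = 0.921), Gfi1 (r = 0.911) and Gtf2h1 (r = 0.899) were the most like Il15ra, and Gfi1 was at 8.34 ± 4.61 TPM in CLP, 26.7 ± 4.35 TPM in GMP and 15.2 ± 5.76 TPM in LMPP. Gm12216 (r = 0.97), Coq8a and Cd163 were the most like Il4ra, 2410006H16Rik (r = 0.96), Mrpl52 and Ppdpf the most like Il21r, and Scrn2 (r = 0.965), Taf1c and Agpat2 the most like Crlf2. The closest genes to Il7r and Il2rg thus had different orders over the types: Rag2 was highest in CLP and Ash1l was highest in LMPP, at 16.3 ± 2.35 TPM in CLP, 10.7 ± 2.56 TPM in GMP and 24.9 ± 6.00 TPM in LMPP (SD, n = 4 each).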

How the data were processed

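The deposited table holds TPM made by the authors, 1 column per library, each summing to between 999999 and 1000001. The submitters' processing notes name mm10, RSEM 1.2.12, Bowtie2 2.2.0 and edgeR 3.10.0, without order or settings. Whether reads were counted by strand is not given, so reads of overlapping antisense genes may be mixed. Depth is lost in TPM, so no counting interval or detection limit is given, and a value of 0 is only listed at 0. Another 17 columns, not matched to these samples by name, were used in no step.

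Symbols and coordinates came from GENCODE for mm10 by Ensembl ID, and promoters from RefSeq. From the deposited TPM, log2(TPM + 1) was fitted with limma 3.58.1 (R 4.3.3) on all 12 libraries with type and additive batch (8 residual degrees of freedom), empirical Bayes moderation with a trend and Benjamini-Hochberg adjustment over 12718 genes. Batch differences used a mean per type and batch (6 residual degrees of freedom). The fit was tested on simulated data. All 7 members are named; of each pathway list, the 3 called genes with the largest difference, and every gene of lists of at most 5, are named. Some pathway genes are not reported here and are in none of the pathway counts. Spi1, Foxp1, Gabpa, Runx1, Pim2, Bcl2l1, Mcl1 and the genes named with changed directions in the closing section were named after their values were seen. Members and lists were chosen with earlier results of these data known. Alternatives were 27 settings, 12 of them leaving out 1 library, and the closing section gives their effect.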

Additional observations from a re-analysis of the deposited data

Results flagged for a closer look

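Among 21 sets of 4 libraries (7 genes in 3 types), 2 held a library far from the other 3, and chance flags about 1 in 20 such sets. In LMPP, Il2ra was at 2.28 TPM in batch 2 replicate 1, and its other LMPP values were 0.03 to 0.34 TPM. In GMP, Il15ra was at 10.38 TPM in batch 2 replicate 1, and its other GMP values were 14.1 to 14.6 TPM. The Il4ra difference between CLP and GMP itself differed between the batches, by -1.444 on the log2 scale (batch 2 minus batch 1, limma adjusted p = 0.0486).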

How the results depend on the processing

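Of 864 alternative values of the members, 773 kept their side of the threshold or, with no test, stayed within the spread, 59 lost a call, 19 gained one and 0 changed sign with a call on either side. The other 13 were untested values of Il7r: CLP minus GMP moved to 8.35 and 7.05 with pseudocounts of 0.1 and 0.5, and the batch difference within CLP spanned -0.233 to 0.615. A tested difference that changed sign with no call on either side was counted among the 773. Crlf2 in CLP minus LMPP, for example, spanned -0.76 to 0.411 and kept its direction in 23 of 27 settings. Il7r and Il2rg kept their GMP minus LMPP calls, and Il2rg its CLP minus GMP call, in all 27 settings. The causes of changed counts were not tested. For CLP minus LMPP, with 2 members, 10 pathway genes and 1276 genes called, 1 member was called with no filter, median-ratio scaling, quantile normalization, batch 1 alone and without the 2 haemoglobin-rich libraries (replicate 1 of batch 2 in CLP and in LMPP); with only the 2 types compared 1 member, 5 pathway genes and 536 genes; with no batch term 0, 6 and 609; with batch 2 alone 0 members. For GMP minus LMPP, with 3, 16 and 3676, there were 2358 genes with no batch term, 5 members with batch 1 alone, and 9 pathway genes and 1126 genes with batch 2 alone. For CLP minus GMP, with 2, 19 and 3040, there were 1944 genes with no batch term and 1 member and 1684 genes with batch 2 alone. For the change of CLP minus LMPP with batch (0 members, 1091 genes), quantile normalization gave 663 genes, no trend 717, and leaving out the haemoglobin-rich libraries 1 member and 3249 genes. For the change of CLP minus GMP with batch (1 member, 697 genes), no filter, median-ratio scaling and quantile normalization gave 0 members, no trend 2, and leaving out the haemoglobin-rich libraries 3 members and 2910 genes. Median-ratio scaling called 602 genes higher and 560 lower in CLP minus LMPP (356 and 920 with TPM as deposited), 1869 and 1717 in GMP minus LMPP (969 and 2707), 1523 and 1699 in CLP minus GMP (1773 and 1267), and 1997 and 1916 between CLP batches (2711 and 1362).

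Leaving out 1 library at a time gave, for CLP minus LMPP, 1 to 2 members, 5 to 11 pathway genes and 606 to 1470 genes; for GMP minus LMPP, 2 to 4, 12 to 18 and 2557 to 4547; for CLP minus GMP, 2 to 2, 14 to 20 and 2075 to 3100; between CLP batches, 2 to 4 members and 2249 to 5014 genes; for the change of CLP minus LMPP with batch, 0 to 1 members and 264 to 2586 genes; and for that of CLP minus GMP, 0 to 3 members and 186 to 2176 genes. Of 45 called pathway differences, 33 were kept in every leave-one-out fit and 14 in every setting. Uncalled pathway differences turned round and became called in 4 cases: Ptpn2 in CLP minus LMPP with batch 1 alone (-0.763, adjusted p = 0.0242), Gab2 in CLP minus GMP with batch 1 alone (-0.904, 0.0204) and without both batch 2 CLP libraries (-0.848, 0.0184), and Bcl2 in CLP minus GMP with batch 2 alone (-1.19, 0.0253). Other uncalled differences changed sign without a call. Ccnd2 in CLP minus LMPP, for example, kept its direction in 18 of 27 settings.

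The labels do not say that a replicate number marks a shared sample. Deviations of same-numbered libraries correlated at -0.106 to 0.169, the highest between CLP and LMPP in batch 2, whose replicates 1 are the haemoglobin-rich libraries. With a replicate block, CLP minus LMPP called 0 members, 4 pathway genes and 212 genes, GMP minus LMPP 2, 13 and 2214, and CLP minus GMP 2, 17 and 2580. Depth is unknown, so the precision of the low values of Il2ra and of Il7r in GMP is not known.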
